A study of Homo sapiens with 6 samples.

Results

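The widest region in the merged list of HA peaks spanned 21314 bp on chromosome 8, and it was examined here together with the genes in and beside it. The region lies at chr8:145733643-145754956 of the human genome build hg19 (GRCh37). The 8 genes described were RECQL4, LRRC14, LRRC24, MFSD3, GPT, PPP1R16A, KIFC2 and FOXH1, out of 20163 protein coding genes annotated on chromosomes 1 to 22, X and Y. They were selected on the width of the merged HA region, a measured value, so the HA values of these genes are given as descriptions without a test. The next widest of the 7216 merged HA regions was 14367 bp wide, and the median width was 423 bp.

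U2OS is a human osteosarcoma cell line. The ProMMP2-3xHA line was derived from it by stable, constitutive expression of full-length ProMMP2, the pro-form of MMP-2, tagged at its C-terminus with 3xHA, and the wild type (WT) line is untagged. Both were grown until 2 days past confluence, and native ChIP-Seq was performed on nucleosomes released by micrococcal nuclease, without crosslinking. Of the 6 samples, 3 were HA replicates of the ProMMP2-3xHA line, 1 was an HA library of the WT line, and each line had 1 H3K4me3 library. An HA list for WT was not used here, and the names of the lists give an HA control immunoprecipitation as the background of the HA replicates. The ProMMP2-3xHA line still carries its own MMP-2, which has no tag, so the HA antibody is directed at the transgenic protein alone. Capture by the antibody in the absence of the tag was not examined here.

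MMP-2 is best known as a secreted matrix metalloproteinase that degrades extracellular matrix, and in the nucleus it can cleave the N-terminal tail of histone H3. Lysine 4 of histone H3 lies in that tail, and its trimethylated form (H3K4me3) marks nucleosomes around the transcription start sites (TSSs) of active genes. Genes in compact clusters often share promoters or overlap at their ends, so that a peak in such a cluster can lie near several genes.

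The genes of the cluster are packed closely and differ in function. RECQL4, a DNA helicase of the RecQ family with roles in replication and repair that is mutated in Rothmund-Thomson syndrome, spans chr8:145736671-145743229 on the minus strand. LRRC14, which encodes a leucine-rich repeat protein, starts less than 1 kb from the RECQL4 TSS and runs in the opposite direction over chr8:145743376-145750556. LRRC24, a leucine-rich repeat membrane protein gene, lies on the minus strand at chr8:145747772-145752417 and shares 2785 bp with LRRC14, so a peak in the shared part cannot be assigned to either gene. MFSD3, a member of the major facilitator superfamily of transporters, occupies chr8:145734453-145736596 on the plus strand, with 74 bp between its end and that of RECQL4. These 4 genes lay wholly inside the merged region.

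The other 4 genes lay beside it. GPT, which encodes a cytosolic alanine aminotransferase, spans chr8:145728356-145732557 on the plus strand and ended 1086 bp short of the region. PPP1R16A, a regulatory subunit of protein phosphatase 1, spans chr8:145703352-145727504 on the plus strand and ended 6139 bp away. FOXH1, a forkhead transcription factor that acts with SMAD proteins in Nodal and activin signalling, lies on the minus strand at chr8:145698795-145701232, at a distance of 32411 bp. KIFC2, a kinesin motor protein gene, spans chr8:145691426-145699585 on the plus strand and ended 34058 bp from the region. C8orf82, which is not among the 8 genes, was also wholly covered by the region, at chr8:145751117-145754516 on the minus strand, and the last 394 bp of ARHGAP39 reached into it.

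**Figure D1:**
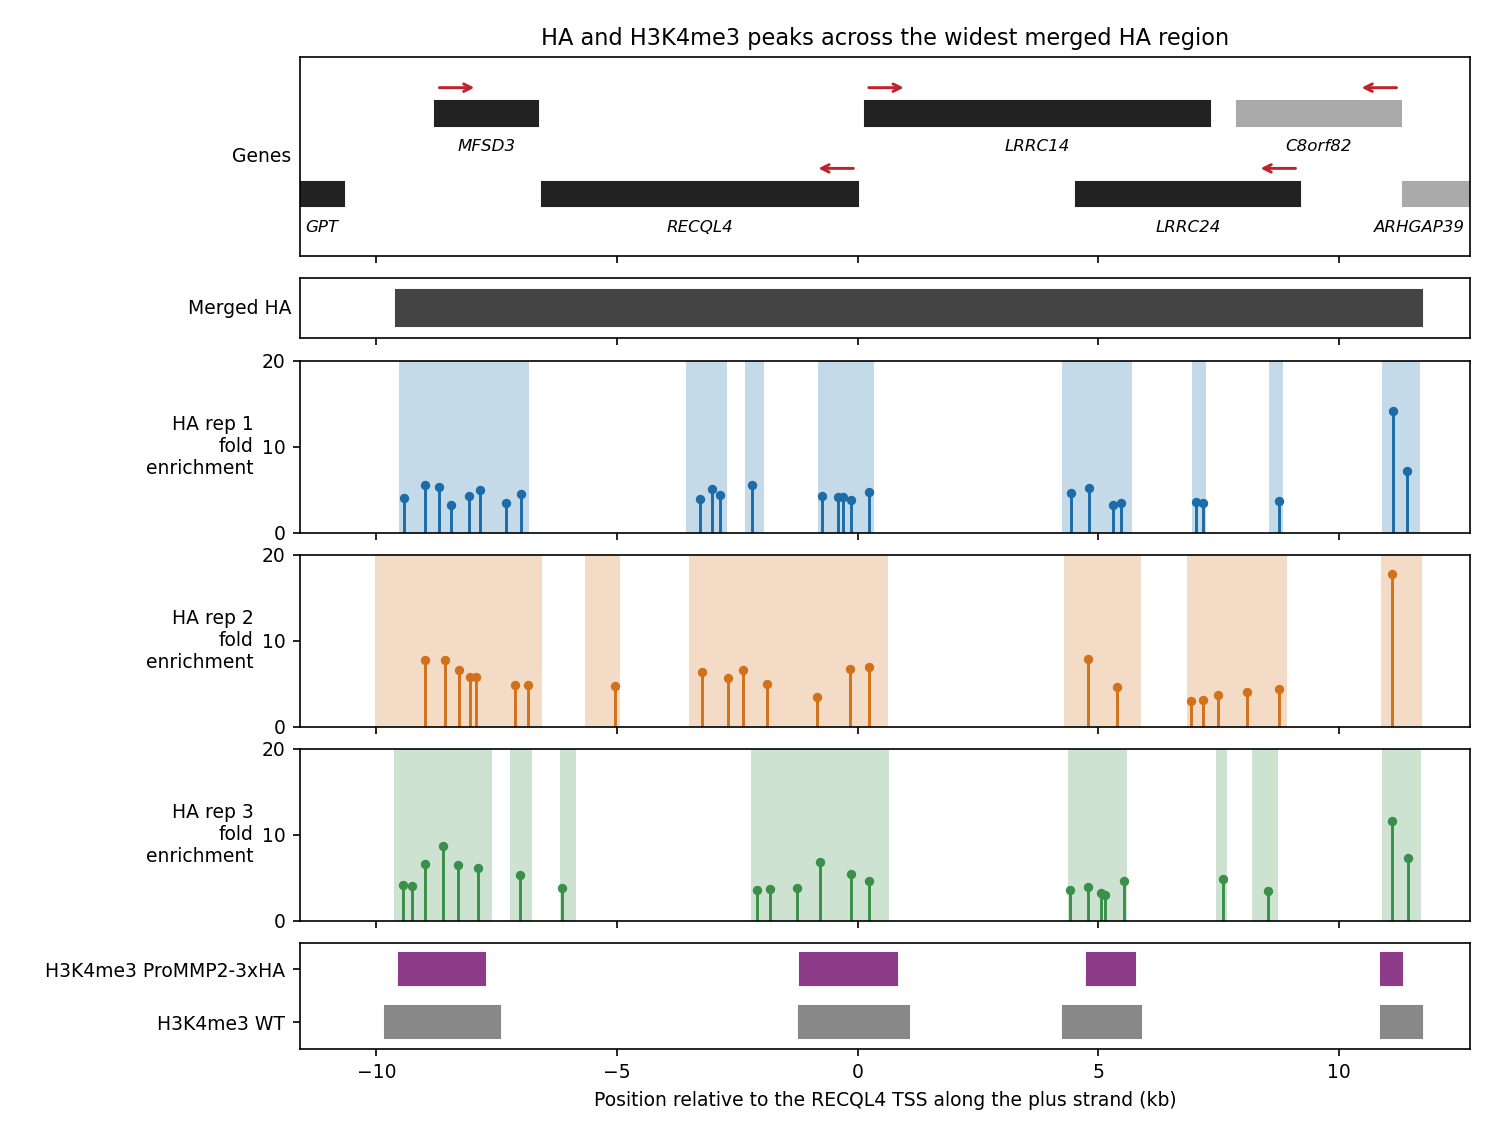
Map of the widest merged HA region, with position relative to the RECQL4 TSS in kb on the x axis. Genes are drawn at the top with arrows at their TSSs (black for genes of the cluster, grey for others), followed by the merged HA region, the intervals (shading) and summits (points, fold enrichment on the y axis) of each HA replicate, and the H3K4me3 regions of both lines; the replicates held 8, 6 and 8 separate intervals where the merged list held 1 region.

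In the peak calls of each replicate the region was a set of separate HA intervals and not 1 continuous interval. The HA signal between the intervals was not examined. The peak caller gave each HA replicate its own intervals and one or more summits per interval, each with a fold enrichment of HA over the local control background. Replicate 1 held 26 summits in 8 intervals, replicate 2 held 23 summits in 6 intervals and replicate 3 held 23 summits in 8 intervals (24.0 ± 1.73 summits and 7.33 ± 1.15 intervals, mean ± SD, n = 3). These intervals covered 37.2% of the region in replicate 1, 58.3% in replicate 2 and 39.6% in replicate 3 (45.0% ± 11.6). Replicate 2 thus covered most, with fewer and wider intervals than the others. Of the 21314 bp, 5949 bp (27.9%) lay in intervals of all 3 replicates, 4019 bp (18.9%) in those of exactly 2, 2918 bp (13.7%) in those of exactly 1, and 8428 bp (39.5%) in none.

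Joined over the replicates, the intervals formed 7 blocks. The widest block, of 4208 bp, ran from the middle of RECQL4 across the shared RECQL4 and LRRC14 promoter, and the next, of 3474 bp, covered MFSD3 and the bases upstream of it. A block of 2077 bp lay over the 3′ end of LRRC14 and the 5′ part of LRRC24, a block of 1648 bp over the last exons of both, and a block of 857 bp over the C8orf82 TSS. The remaining blocks, of 346 and 720 bp, lay in the 3′ part of RECQL4 and were called in 1 replicate each, replicate 3 and replicate 2. The widest gap without an interval in any replicate was 3596 bp, at chr8:145743875-145747470 within LRRC14. The smallest gap between neighbouring regions in the merged list was 4032 bp, and every gap inside the region was narrower than that. Per the paper, the replicates were merged and analysed again to give this list. The merged region therefore need not be the replicate intervals joined over gaps, and how it came to span them was not tested.

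When the intervals of the replicates were joined, the width of the widest piece depended on the gap allowed. With no gap joined, the widest piece of the union of the 3 replicates in the region was 4208 bp and ranked 25 of 12720 pieces in the genome, of which the widest was 8537 bp. Joining gaps of up to 500 bp or of up to 1000 bp gave a widest piece of 5084 bp, at ranks 25 and 48. Joining gaps of up to 2000 bp gave 10670 bp at rank 12, and joining gaps of up to 4000 bp gave 21758 bp at rank 3 of 10353. Within single replicates at 4000 bp, the region measured 21224 bp at rank 2 in replicate 1, 21758 bp at rank 3 in replicate 2 and 21344 bp at rank 1 in replicate 3. These joining distances were chosen after the values had been seen.

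**Figure D2:**
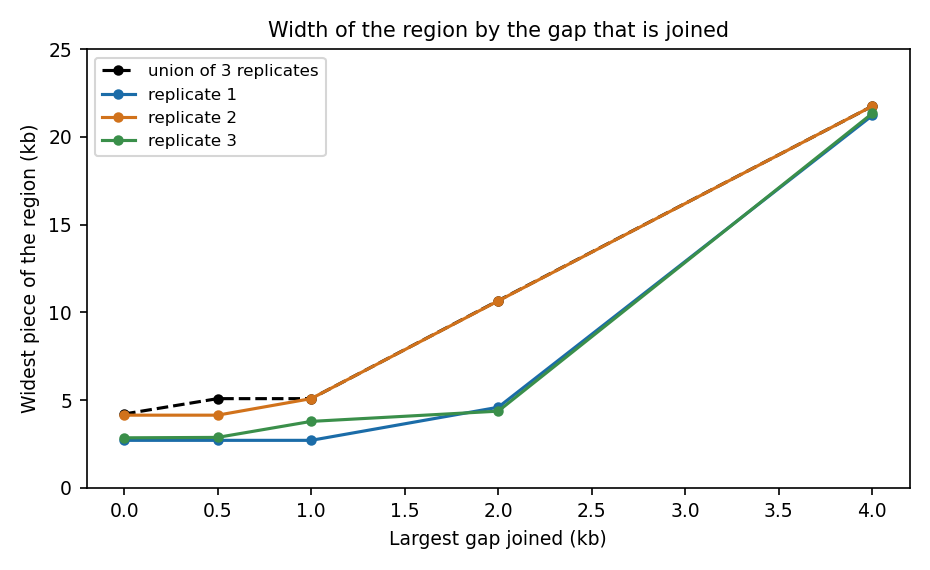
Width of the widest piece of the region (kb, y axis) against the largest gap between HA intervals that was joined (kb, x axis), for each replicate and for the union of all 3. The union rose from 4208 bp with no gap joined to 21758 bp with gaps of up to 4000 bp joined.

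The strongest HA summit of the region lay at the C8orf82 TSS in every replicate. Its fold enrichment was 14.1 in replicate 1, 17.7 in replicate 2 and 11.6 in replicate 3 (14.5 ± 3.08), at 158, 177 and 171 bp downstream of the TSS in exon 1. From the fold enrichment and p-value of each summit, the HA fragments over it came to 198, 246 and 171 at the depth of the HA libraries. The control background was 3, 4 and 4 fragments at the depth of the control, so these counts are not on the same scale. A higher fold enrichment was found at only 43 of the 8161 summits of replicate 1, while replicate 2 had 50 such summits among 13417 and replicate 3 had 111 among 12728. The next highest summit of the region reached 7.17, 7.87 and 8.67, and the median over the region's summits was 4.29, 5.62 and 4.58, beside 4.75, 4.87 and 4.47 over all summits of the same lists. The median height of the region's summits was thus close to that of all summits.

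At the TSSs inside the region, MFSD3 carried the highest HA enrichment among the 8 genes. Within 1 kb of the MFSD3 TSS, the highest summit had a fold enrichment of 5.50 in replicate 1, 7.71 in replicate 2 and 8.67 in replicate 3 (7.29 ± 1.63), at 203 bp upstream, 198 bp downstream and 152 bp downstream of the TSS. RECQL4 and LRRC14 share their promoter and therefore the same highest summit within 1 kb, with a fold enrichment of 4.69, 6.97 and 6.79 (6.15 ± 1.27). It lay 89 bp into LRRC14 in replicates 1 and 2 and 787 bp into RECQL4 in replicate 3. The MFSD3 value was the higher in each of the 3 replicates, although the ranges over replicates overlapped.

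LRRC24 differed from its neighbours in that no HA interval of any replicate reached its TSS. The nearest interval was 354, 272 and 445 bp away, downstream in the first intron, and the summits within 1 kb of the TSS had a fold enrichment of 3.65, 4.38 and 3.52 (3.85 ± 0.464). All 3 values were below the lowest value of the RECQL4 and LRRC14 promoter and of the MFSD3 promoter. The merged region, which bridges the gap, nevertheless covered the LRRC24 TSS.

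The genes beside the region had little or no HA at their TSSs. PPP1R16A had a summit within 1 kb in replicate 2 (fold enrichment 3.95, 258 bp upstream) and in replicate 3 (3.72, 220 bp upstream) and none in replicate 1. FOXH1, which starts 2120 bp from PPP1R16A in the opposite direction, had a summit in replicate 2 alone (3.97, 795 bp upstream), in the interval that also reached the PPP1R16A TSS. GPT likewise had a summit only in replicate 2 (3.60, 866 bp upstream), and that interval lay over the 3′ end of PPP1R16A. From the start of the canonical GPT transcript, the nearest summit of replicate 2 was 2033 bp away. KIFC2 had none in any replicate, and its nearest summits were 2843, 2890 and 2907 bp away.

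**Figure D3:**
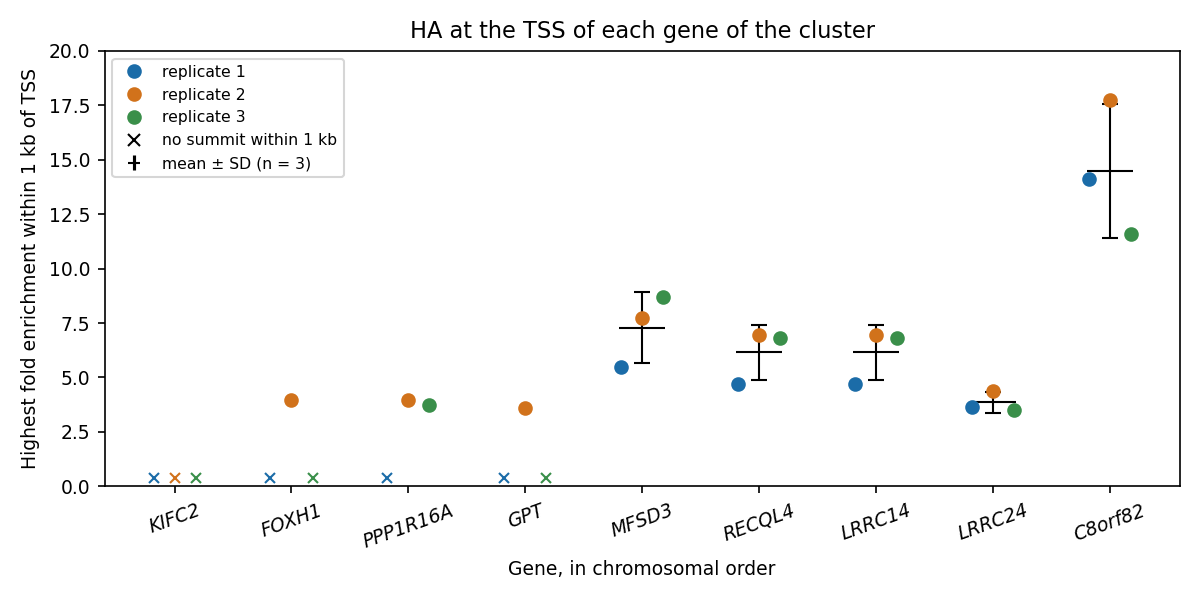
Highest fold enrichment of HA over control within 1 kb of the TSS (y axis) for the genes of the cluster and C8orf82 (x axis), with a point for each replicate, a cross where a replicate had no summit there, and the mean ± SD of 3 replicates where all had one. The C8orf82 values, from 11.6 to 17.7, lie above all others, and RECQL4 and LRRC14 show the same values because they share a promoter.

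Counted over the 8 genes, an HA interval lay within 1 kb of the TSS of 4 genes in replicate 1, 7 in replicate 2 and 5 in replicate 3. With the start of the canonical transcript, replicate 2 had 6. Over all protein coding genes the share was 20.3% in replicate 1, 28.0% in replicate 2 and 28.6% in replicate 3. The 4 genes with an interval there in all replicates were MFSD3, RECQL4, LRRC14 and LRRC24, which the choice of region fixes. In the merged list 7 of the 8 genes had HA within 1 kb, all but GPT, against 28.2% of all genes. Without replicate 2, neither FOXH1 nor GPT had an interval of a replicate within 1 kb. Among the 18 other genes with a TSS within 250 kb of the region, 8, 10 and 10 had an interval within 1 kb in the replicates.

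HA intervals also extended over the bodies of the 4 genes inside the region. MFSD3 had 91.0%, 100% and 76.6% of its length inside intervals of replicates 1, 2 and 3 (89.2% ± 11.8). RECQL4 had 31.5%, 64.6% and 38.9% (45.0% ± 17.4), LRRC14 had 27.0%, 36.0% and 24.0% (29.0% ± 6.24), and LRRC24 had 36.8%, 73.7% and 38.8% (49.8% ± 20.7). MFSD3 was covered most in each replicate and LRRC14 least, while RECQL4 and LRRC24 did not differ beyond their spread. These shares depend on gene length, and MFSD3 is the shortest of the 4 at 2144 bp and LRRC14 the longest at 7181 bp. HA in the 2785 bp that LRRC14 and LRRC24 share counts for both genes. Replicate 2 gave the highest value for each of the 4 genes. Outside the region, replicate 2 covered 16.3% of FOXH1 and 9.17% of PPP1R16A, the other replicates covered neither, and GPT and KIFC2 were at 0 in all 3.

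In the merged list, more than 25% of the gene was covered in 4 of the 8 genes (100% in each), beside 1.68% of all protein coding genes. In the replicates this held for 4 genes in replicate 1, 4 in replicate 2 and 3 in replicate 3, where LRRC14 fell short, beside 0.446%, 1.49% and 0.823% of all genes. Because the genes were chosen by the width of the region, these counts follow from the choice. The median over the 8 genes was 13.5%, 26.1% and 11.99% in the replicates, and the median of all protein coding genes was 0.

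The summits inside RECQL4 were not confined to its promoter. RECQL4 held 8, 7 and 6 summits in its body. The highest of those beyond 1 kb from the 5′ end of any protein coding gene were compared. They had a fold enrichment of 5.48 in intron 6 in replicate 1, 6.64 in exon 7 in replicate 2 and 3.84 in exon 21 in replicate 3. None of them had a summit within 75 bp in both other replicates, and they lay outside the H3K4me3 regions of both lines. RECQL4 has annotated transcript starts inside the gene at 145738155, 145739898 and 145741387, and the nearest summits to the last of these were 346, 45 and 27 bp away. The nearest summits to the first were 1808, 24 and 1076 bp away, and those to the second 65, 91 and 1236 bp.

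By annotation, an exon of at least 1 gene held 18, 13 and 17 of the region's summits in replicates 1, 2 and 3, and 2, 1 and 3 lay between genes. Summits farther than 1 kb from the 5′ end of every protein coding gene numbered 12, 13 and 11, without regard to transcript starts inside genes. Neighbouring summits were a median of 370, 571 and 403.5 bp apart.

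H3K4me3, which played no part in choosing the genes, covered most TSSs of the region and 1 internal site. H3K4me3 covered 24.6% of the region in ProMMP2-3xHA cells (5238 bp in 4 regions) and 32.6% in WT cells (6945 bp in 4 regions). The TSSs of MFSD3, RECQL4, LRRC14, PPP1R16A and KIFC2 lay inside an H3K4me3 region in both lines. The TSSs of LRRC24, FOXH1 and GPT did not, with the nearest H3K4me3 at 1686, 1327 and 5340 bp in ProMMP2-3xHA cells and at 1682, 1232 and 5058 bp in WT cells. H3K4me3 within 1 kb was thus found for 5 of the 8 genes in each line, beside 57.0% of all protein coding genes in ProMMP2-3xHA cells and 60.9% in WT cells. KIFC2 therefore had H3K4me3 over its TSS and no HA interval within 1 kb in any replicate.

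The widths of the H3K4me3 regions were compared between the lines, with 1 library each and so without a test. At MFSD3 the region was 1784 bp wide in ProMMP2-3xHA cells and 2396 bp in WT cells, at the shared RECQL4 and LRRC14 promoter 2018 and 2294 bp, at PPP1R16A 2350 and 2626 bp, and at KIFC2 2230 and 2817 bp. At the C8orf82 TSS, where HA was highest, the widths were 441 and 860 bp. The ratio of WT to ProMMP2-3xHA width was 1.34 at MFSD3, 1.14 at RECQL4 and LRRC14, 1.95 at C8orf82, 1.12 at PPP1R16A and 1.26 at KIFC2. Each was wider in WT cells, but so were 92.0% of the 14188 H3K4me3 regions that paired between the lines, with a median ratio of 1.31. Among these promoters the ratio was largest at C8orf82 and smallest at PPP1R16A, with KIFC2 in between. KIFC2 had no HA interval of a replicate within 1 kb of the TSS but a merged HA region 645 bp from it. Whether the ratio goes with HA was not tested. Differences in depth or efficiency between the H3K4me3 libraries and a difference between the lines cannot be told apart.

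An H3K4me3 region without the TSS of a protein coding gene within 1 kb lay inside the cluster, at chr8:145747998-145748992 in ProMMP2-3xHA cells. It was 995 bp wide there, against 1626 bp in WT cells. Starts of noncoding genes were not examined. It lies where LRRC14 exon 4 and LRRC24 exon 5, the last exon of each gene, overlap. HA had a summit there at the same place in all replicates, with a fold enrichment of 5.17, 7.87 and 3.92 (5.65 ± 2.02) and positions within 27 bp of each other. The HA fragments were 144, 196 and 84 at the depth of the HA libraries. The control background, at the depth of the control, was 7, 8 and 6.40 fragments, the highest of any summit of the region in each replicate.

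**Figure D4:**
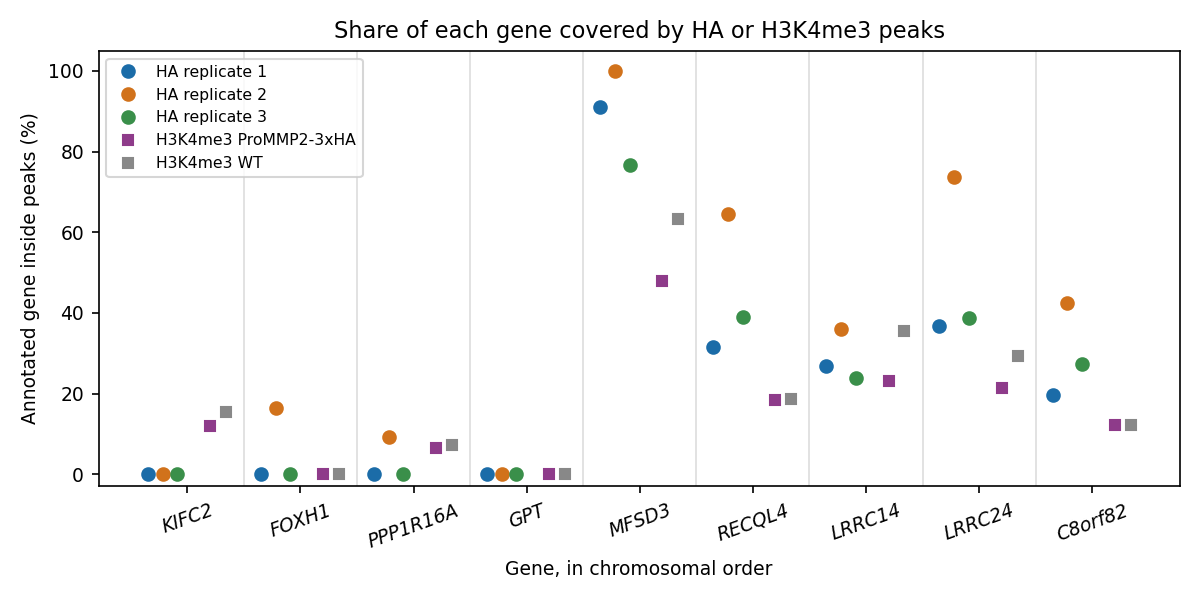
Share of each annotated gene (%, y axis) inside HA intervals of each replicate (circles) and inside H3K4me3 regions of each line (squares), with the genes in chromosomal order on the x axis. MFSD3 has the highest HA cover, from 76.6% to 100%, and KIFC2 has H3K4me3 cover but no HA cover.

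Bases shared by all HA replicates lay mostly inside H3K4me3. The bases in HA intervals of all 3 replicates lay inside H3K4me3 of ProMMP2-3xHA cells for 70.5%, those in exactly 2 replicates for 19.3%, those in exactly 1 for 3.29% and those in none for 2.04%. With the WT list the shares were 86.1%, 28.1%, 8.29% and 5.34%. Read from the other side, HA of at least 1 replicate covered 96.7% of the ProMMP2-3xHA H3K4me3 bases in the region and all 3 replicates covered 80.0%.

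**Figure D5:**
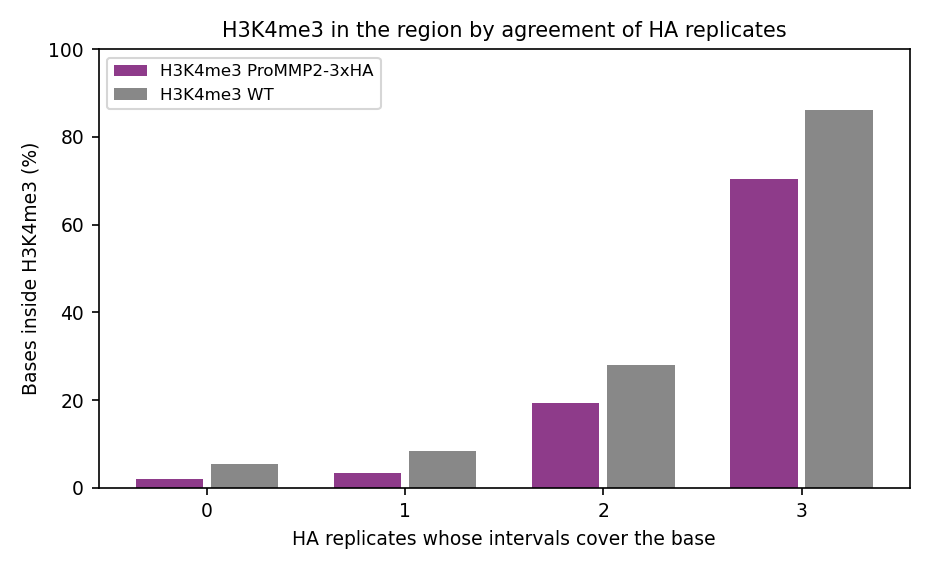
Share of bases inside H3K4me3 (%, y axis) for bases of the region that lie in HA intervals of exactly 0, 1, 2 or 3 replicates (x axis), with a bar for each cell line. The share is 2.04% for ProMMP2-3xHA and 5.34% for WT where no replicate has an interval and reaches 70.5% and 86.1% where all 3 do.

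The summits showed the same division. A summit was counted as recurring when both other replicates had a summit within 75 bp, and 7 of 26, 6 of 23 and 8 of 23 summits of the region did so (26.9%, 26.1% and 34.8%), beside 42.2%, 26.2% and 27.0% of all summits. All recurring summits of the region lay inside H3K4me3 in both lines. Of those that did not recur, 8 of 19 (42.1%), 5 of 17 (29.4%) and 6 of 15 (40.0%) lay inside the ProMMP2-3xHA H3K4me3. Over all summits of the 3 lists, the share inside ProMMP2-3xHA H3K4me3 was 89.6%, 90.0% and 90.2% for recurring summits and 59.9%, 57.3% and 69.9% for the others. In total, 57.7%, 47.8% and 60.9% of the region's summits (55.5% ± 6.80) lay in ProMMP2-3xHA H3K4me3, beside 72.4%, 65.9% and 75.3% of all summits.

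Linking each recurring summit to its partners in the other replicates gave 9 positions within the region, with summits 5 to 128 bp apart. Not every linked summit recurred itself. At the positions with spreads of 98 bp (RECQL4), 114 bp (MFSD3) and 128 bp (last exons of LRRC14 and LRRC24), the summit of only 1 replicate met the 75 bp rule. Of the 9 positions, 3 were at MFSD3. The tightest of these lay upstream of the MFSD3 TSS, by 203, 221 and 218 bp, with a fold enrichment of 5.50, 7.71 and 6.66 (6.62 ± 1.11). On the RECQL4 side of the shared promoter, a position 137 bp into the gene in replicate 1, and within 10 bp of that in the others, had a fold enrichment of 3.78, 6.75 and 5.42 (5.32 ± 1.49), and a broader one 735, 833 and 787 bp into it had 4.31, 3.49 and 6.79 (4.86 ± 1.72). On the LRRC14 side, the position in intron 1, at 89, 89 and 84 bp downstream of the TSS, had 4.69, 6.97 and 4.67 (5.44 ± 1.32). It held 80, 95 and 67 HA fragments at the depth of the HA libraries, and the control background was 4 in each at the depth of the control. The shared promoter therefore carried a reproducible summit on either side of the TSSs, and the values on both sides overlapped. The remaining positions were a pair in the overlapping last exons of LRRC14 and LRRC24 and the C8orf82 TSS.

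The median fold enrichment of summits inside and outside the ProMMP2-3xHA H3K4me3 regions was 4.28 and 4.34 in replicate 1, 6.75 and 4.78 in replicate 2, and 5.04 and 3.78 in replicate 3. With the WT regions the medians were 4.31 and 3.95, 6.75 and 4.78, and 5.04 and 3.78. The median was thus higher inside in replicates 2 and 3 with either list, while in replicate 1 the medians were close and their order depended on the list.

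The depth behind these values was limited. The region's summits held a median of 53.5, 51.5 and 58.0 HA fragments (ranges 36 to 198, 36 to 246 and 27 to 171), as far as fragments could be recovered, which was for 24, 22 and 20 summits. The control background under them, at the depth of the control, was 2.95, 3.19 and 3.42 fragments at the median, above the 2.00 of all summits in each replicate. Summits within 1 Mb outside the region had 3.00, 3.15 and 3.00. The control background was therefore also raised at the HA summits around the region, and its part in the HA summits was not tested. Control background away from HA summits was not measured.

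Base composition differed along the region. The region had a GC content of 65.1%, beside 55.7% in the 250 kb on either side and 40.2% over the chromosome. Bases in HA intervals of all 3 replicates had 69.9% GC and a ratio of observed to expected CpG of 0.759, whereas bases with HA and no H3K4me3 in either line had 61.9% and 0.320. Bases with neither had 64.5% and 0.520. HA without H3K4me3 thus lay on bases poorer in CpG than the bases with neither, while HA with H3K4me3 had a ratio of 0.776. A low ratio was not particular to HA without H3K4me3. The 450 bp with H3K4me3 of either line and no HA had 55.3% GC and a ratio of 0.321. The part of base composition in these values was not tested.

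Compared with the next 9 widest merged regions, which were 12322 to 14367 bp wide, the region held the highest summit in each replicate. The highest fold enrichment among the other 9 was 11.3, 14.8 and 10.3 in replicates 1, 2 and 3. The mean share covered by HA intervals, 45.0%, fell within the 18.5% to 52.6% of the others, as did the share in ProMMP2-3xHA H3K4me3, 24.6% within 0 to 44.2%. The number of TSSs inside, 5, was reached by 1 of the others, and the rest held 0 to 4. The GC content of 65.1% was below the highest of the others, 65.9%.

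The other human genes of the RecQ helicase family, RECQL, BLM, WRN and RECQL5, were read in the same way. BLM, mutated in Bloom syndrome, had a highest fold enrichment within 1 kb of its TSS of 5.12, 5.24 and 5.39 (5.25 ± 0.136). RECQL5 had 5.54, 6.84 and 3.85 (5.41 ± 1.503). Both overlapped with the RECQL4 and LRRC14 promoter. RECQL had a summit in replicate 3 alone (4.25), and WRN, mutated in Werner syndrome, had none within 1 kb. All 4 had H3K4me3 over the TSS in both lines. Merged HA regions covered 0.222% of BLM, 0.493% of RECQL5 and none of RECQL and WRN, against 100% of RECQL4, which is the shortest of the 5 genes at 6559 bp.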

How the data were processed

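Values came from the authors' peak lists of 5 of the 6 samples and their list of merged HA replicates. Per the submitters' processing notes, Trim Galore 0.6.0, Bowtie2 2.3.5.1, SAMtools 1.9, Picard, MACS2 3.0.0a6 and deepTools 3.5.1 were used with hg19 (GRCh37). The authors called HA replicates separately at a q-value of 0.05. For every summit in these deposited lists there is an interval, a score, a ratio (the fold enrichment over local background) and −log10 values of p-value and q-value. The merged HA and H3K4me3 lists were deposited by the authors as positions only, with narrow and broad calls combined. For the merged HA list, the paper states that the replicates were merged and analysed again. The part of either step in the width of the regions was not tested. The replicates are described as independent biological experiments. The peak lists do not give the read total of each library. Relative depths (HA to control) of 3.57, 2.81 and 3.00 in replicates 1, 2 and 3 were recovered from fold enrichment and p-value together, and whole fragments (within 0.06) from these for 90.1%, 90.8% and 90.0% of summits. Counting error and amplification bias remain in these numbers. The recovery assumes a Poisson p-value and a fold enrichment with 1 added to both the scaled HA count and the control background. It was checked on data simulated with these same formulas, so the check cannot show whether the peak caller used them.

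Protein coding genes came from the GENCODE 44 annotation mapped to GRCh37, with the 5′ end of a gene as its TSS and exons of its canonical transcript. Noncoding genes were not used. Windows of 1 kb and summit distances of 75 bp were used. The text names the 8 genes, any other protein coding gene overlapping the region or its 1 kb flanks, and the other RecQ helicase genes. The genes and lists were chosen with earlier results of these data known. No test was run, since HA values chose the genes and H3K4me3 had 1 library per line. Values are means ± SD over 3 HA replicates. No sequence of the region is printed. Python 3.11.15, numpy 2.4.6, pandas 2.3.3 and scipy 1.17.1 were used.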

Additional observations from a re-analysis of the deposited data

How the results depend on the processing

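Of 104 alternative values for 22 results, 88 were classed as unchanged and 16 as moved. The unchanged class was wide and held values beyond the SD, such as 19 summits at a q-value of 0.01 or less, against 24 ± 1.73. Counts of genes have no spread. H3K4me3 within 2 kb of the TSS, found for 7 genes in each line against 5 within 1 kb, was also classed as unchanged. The results are levels and counts without a direction. Leaving out each replicate in turn was done for the HA values of the whole region and for the gene cover and moved none past the spread, but without replicate 2 the mean HA cover went from 5.44% to 0 for FOXH1 and from 3.06% to 0 for PPP1R16A (leaving out replicates was added for the gene cover after seeing the data). Counting only peaks with a q-value of 0.001 or less gave 15.7 summits in the region and 35.2% recurring, counting summits with a fold enrichment of 5 or more gave 9.67, and counting each interval once gave 7.33. Summits recurred for 41.8% at 150 bp and 66.7% at 300 bp. The median fold enrichment over the region's summits was 4.83, against 14.5 for the highest. Summits within 1 kb of H3K4me3 made up 74.9% with either line's list. H3K4me3 regions of at least 500 bp covered 22.5% of the region in ProMMP2-3xHA cells. HA over the TSS itself was found for 4 of the 8 genes in replicate 2 and 3 in replicate 3. The widest piece was 4208 bp with no gap joined, 5084 bp with 500 or 1000 bp joined and 10670 bp with 2000 bp joined, alternatives chosen after seeing the data. The causes follow from how each alternative is built. No paired analysis was possible because no test was run and only 1 group had more than 1 replicate. Depth limits the fold enrichment, since the control background under most summits was only a few fragments.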
